A study of Ovis aries with 16 samples.

Results

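The neurotransmitter receptors and the glutamate transporter of the fetal sheep hypothalamus were followed on a 1-color oligonucleotide microarray. Members were all probes that the scanner files name GLT-1 or 5HT2A, or whose gene name starts with GRIN, GRIA, GABR, HTR, DRD, ADRA, ADRB, CHRM or CHRN. The rule found 12 probes for 9 genes among 15008 probes, of which only 1656 carry a gene name (1029 names). They were the NMDA receptor subunit GRIN1 (2 probes), the AMPA receptor subunits GRIA1 (2 probes), GRIA2, GRIA3 and GRIA4 (2 probes), the glutamate transporter GLT-1, the serotonin receptor 5HT2A, and the beta adrenergic receptors ADRB1 and ADRB3. No named probe started with GABR, HTR, DRD, ADRA, CHRM or CHRN.

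Hypothalamus was taken from 16 late-gestation Suffolk fetuses, 1 per array, 24 h after the onset of 30 min of normoxia or of hypoxia, which was produced by lowering the oxygen in the gas breathed by the ewe and was followed by 23.5 h of normoxia. NC (n = 3) had saline and normoxia, NK (n = 4) ketamine and normoxia, HC (n = 5) saline and hypoxia, and HK (n = 4) ketamine and hypoxia, with both injections intravenous. The pregnancies were mostly twin, and the study assigned each pregnancy at random to normoxia or hypoxia, so littermates would share that arm. The labels name no littermates, so the tests treat the fetuses as independent, although some may be related. All 8 hypothalamic markers with a named probe (SST, OXT, NPY, POMC, AGRP, TAC3, GNRH1 and PMCH) were well above background, AGRP on 15 arrays and the others on 16.

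Glutamate is the main excitatory transmitter of the brain. It opens AMPA receptors, built from GRIA subunits, for fast signaling, and NMDA receptors, which require the GRIN1 subunit and admit calcium, and it is then cleared from the synapse by transporters, of which the astrocytic GLT-1 (also called EAAT2, gene SLC1A2) is the most abundant in forebrain. Ketamine is an anesthetic that blocks the channel of NMDA receptors. 5HT2A is an excitatory serotonin receptor coupled to G proteins, and the beta adrenergic receptors raise cyclic AMP when they bind norepinephrine or epinephrine.

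The probes are 60 bases long and were read from the scanner files. Those that the results turn on are shown 5′ to 3′ with the longest run shared with the other probe of the same record in capitals, because probes that overlap are not independent measurements.
GRIN1 probe A_70_P002822: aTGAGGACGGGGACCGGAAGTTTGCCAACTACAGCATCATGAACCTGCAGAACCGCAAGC
GRIN1 probe A_70_P002821: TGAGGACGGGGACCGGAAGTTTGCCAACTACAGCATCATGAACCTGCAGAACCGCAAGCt
NR1 probe A_70_P002761: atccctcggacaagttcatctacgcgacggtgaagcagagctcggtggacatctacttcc
GRIA3 probe A_70_P002751: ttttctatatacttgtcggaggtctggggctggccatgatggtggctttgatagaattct
GRIA4 probe A_70_P002757: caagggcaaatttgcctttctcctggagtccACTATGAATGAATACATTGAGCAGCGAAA
GRIA4 probe A_70_P002756: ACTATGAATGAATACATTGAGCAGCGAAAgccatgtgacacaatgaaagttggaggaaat
GRIA1 probe A_70_P002742: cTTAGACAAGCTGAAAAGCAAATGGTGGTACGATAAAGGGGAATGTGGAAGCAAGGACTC
GLT-1 probe A_70_P041736: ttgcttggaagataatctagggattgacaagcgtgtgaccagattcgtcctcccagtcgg
EAAT2 probe A_70_P026706: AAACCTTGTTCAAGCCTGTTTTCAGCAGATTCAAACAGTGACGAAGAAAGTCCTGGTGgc
The GRIN1 probes share 59 of their 60 bases, the GRIA1 probes 59, the EAAT2 probes 58 and the GRIA4 probes 29, so the GRIN1 and GRIA1 pairs measure almost the same target. NR1 and EAAT2 are other records on the array whose names stand for the GRIN1 subunit and for GLT-1. That identity was taken from the names and was not tested by sequence. A genome build was not stated for these sequences, so their positions are not given.

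Of the genes linked to ketamine, GRIN1 and GRIA1 to GRIA4 were well above background on all 16 arrays with every probe. In a list of 26 symbols linked to ketamine, these 5 genes were the ones matched by name, and none of the other NMDA receptor subunits was. The mu and kappa opioid receptors, also on that list, were matched by their description. 5HT2A and ADRB3 were well above background on 15 arrays (not on HK1 and NK3, respectively) and ADRB1 on 13 (not on NK3, HC3 and HK4). The GLT-1 probe passed that mark on just 6 arrays, 1 of 3 in NC, 2 of 4 in NK, 1 of 5 in HC and 2 of 4 in HK. All 12 probes passed the filter for testing, which required this on 3 arrays.

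Differences are given on the log2 scale with their standard errors from a linear model of all 16 arrays, and a probe was called at an unadjusted p under 0.05. Adjusted p-values are Benjamini-Hochberg values over the 12249 probes tested. No member passed after adjustment in any comparison, and the smallest adjusted p of a member was 0.431, while 0.00816% of tested probes passed in HK against NK and 0% in the other comparisons. The calls below are therefore unadjusted ones, whose 95% intervals leave out 0, and each count of calls is set against the share of all tested probes that was called. In whole tissue, fewer cells of a type and less RNA per cell cannot be told apart.

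Among the comparisons of 2 groups, the glutamate receptor subunits were called in HK against NK. GRIN1 (both probes), GRIA3 and GRIA4 (1 of 2 probes) were lower in fetuses given ketamine and hypoxia than in those given ketamine and normoxia. These were 4 of 12 member probes, against 6.31% of all tested probes called lower and 8.69% called in either direction. Because the GRIN1 probes are near copies, the calls stand for 3 of 9 genes. Over the member probes, 11 of 12 differences were below 0 with a median of -0.27, against a median of -0.01 over all tested probes. These included ADRB1 and ADRB3, which were near 0 (-0.05 each). 4 member probes, both GRIN1 probes among them, had no overlap between the HK and NK arrays, against 5.42% of tested probes. The 2 probes of a gene count separately here, so these tallies are not of independent members.

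GRIN1, the subunit that every NMDA receptor needs, had signals relative to the 75th percentile of the array of -1.61, -1.74 and -1.24 in NC, -1.31, -1.77, -1.55 and -1.33 in NK, -0.95, -2.94, -2.06, -1.85 and -1.15 in HC, and -3.26, -1.82, -2.23 and -2.03 in HK (log2, probe A_70_P002822). Every HK array was below every NK array, while HC spanned nearly the whole range. HC2 and HK1 were the lowest arrays of the 16. The means were highest in NK (-1.49 ± 0.21, SD, n = 4), then NC (-1.53 ± 0.26, n = 3), HC (-1.79 ± 0.79, n = 5) and HK (-2.34 ± 0.64, n = 4), and no neighbors in this order were called different. HK was lower than NK by -0.85 ± 0.38 (95% interval -1.67 to -0.02, adjusted p = 0.555), which is 55.5% of the NK signal.

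The other GRIN1 probe, A_70_P002821, gave -0.84 ± 0.35 (95% interval -1.58 to -0.10, adjusted p = 0.498), with no overlap either. The NR1 probe, which has none of that sequence, was -0.32 ± 0.18 in the same comparison (95% interval -0.70 to 0.06, adjusted p = 0.669) and was not called, except without HK2 (-0.42). Across the 16 arrays it followed GRIN1 with a Pearson r of 0.85, described without a test because the probes share arrays and RNA. Within slide 1, which held the first 2 replicates of each group, the GRIN1 differences were -1.002 and -0.86, and within slide 2 they were -0.69 and -0.82. Neither slide passed the threshold on its own. Without HK1 the differences were -0.54 and -0.60 and neither was called. In that fit 1 member probe (GRIA3) was called in HK against NK, with 6.63% of tested probes. The call for A_70_P002822 was also lost without NC1, NC2, NC3, NK1, NK3, NK4, HC3, HC4 or HK3, and that for A_70_P002821 without NK1, NK3, NK4 or HK3, with differences from -1.02 to -0.54 and from -1.004 to -0.60 over all arrays left out in turn.

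**Figure D1:**
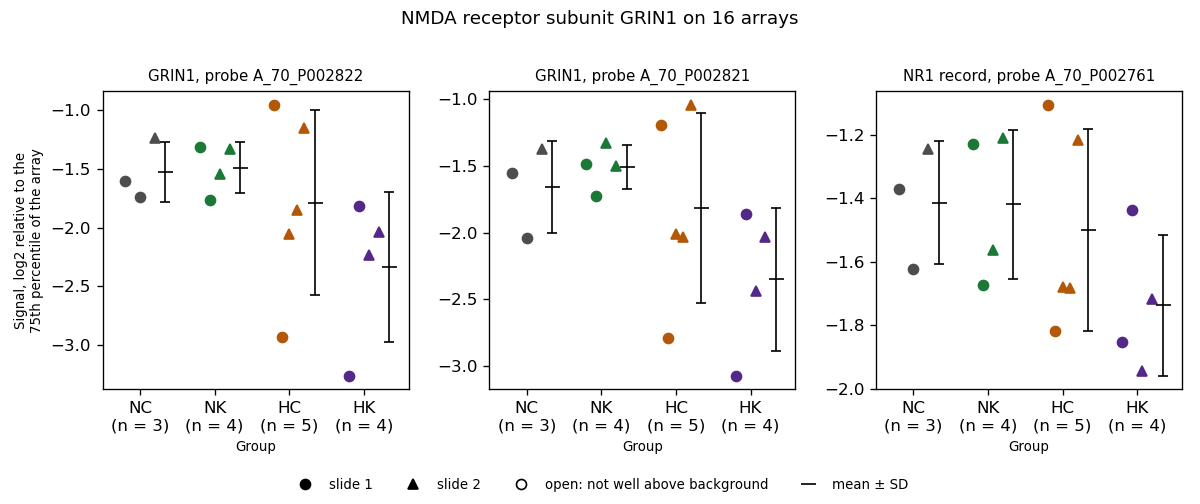
Signal of 3 probes for the NMDA receptor subunit GRIN1 on each array (y axis, log2 relative to the array's 75th percentile) in the 4 groups (x axis), with circles for slide 1, triangles for slide 2 and bars for the mean ± SD. The HK arrays lie below all NK arrays with both GRIN1 probes (-3.26 to -1.82 against -1.77 to -1.31 for A_70_P002822). HC2 (-2.94) and HK1 (-3.26) lie lowest with A_70_P002822, and HK3 (-1.94), HK1 (-1.85) and HC2 (-1.82) with the NR1 probe.

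Of the AMPA receptor subunits, GRIA3 gave the call that held in every fit with 1 array left out. Its signals were -0.34, 0.04 and -0.31 in NC, -0.05, 0.16, 0.06 and -0.32 in NK, 0.02, -0.86, -0.14, -0.47 and -0.15 in HC, and -0.39, -0.50, -0.59 and -0.62 in HK. All HK arrays lay below all NK arrays, and HC2 was the lowest of all. The order of the means was NK (-0.04), NC (-0.20), HC (-0.32) and HK (-0.52), in which no neighbors were called different. HK was lower than NK by -0.49 ± 0.17 (95% interval -0.85 to -0.12, adjusted p = 0.431), and the difference was -0.50 within slide 1 and -0.47 within slide 2. Leaving out each array gave -0.58 to -0.42.

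GRIA4 had signals of -2.15, -2.40 and -2.02 in NC, -2.09, -2.17, -2.27 and -2.13 in NK, -1.92, -2.89, -2.45, -2.33 and -1.998 in HC, and -2.95, -2.26, -2.65 and -2.60 in HK with probe A_70_P002757. The NK arrays were close together, HK2 fell just inside their range, and HK1 and HC2 were again the lowest. HK was lower than NK by -0.45 ± 0.19 (95% interval -0.86 to -0.04, adjusted p = 0.522). The second probe, A_70_P002756, gave -0.46 ± 0.22 (95% interval -0.92 to 0.01, adjusted p = 0.590) and was not called, although its HK and NK arrays did not overlap. The call for A_70_P002757 was lost without HK1 (-0.34), HK3, HK4, NK1, NK2 or NK4 (-0.45 to -0.43), and that for A_70_P002756 was gained without HC1, HC2 (both -0.46) or HK2 (-0.56). The means of A_70_P002757 ran from NK (-2.17) to NC (-2.19), HC (-2.32) and HK (-2.62), with no neighbors called different.

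GRIA2, the subunit that makes AMPA receptors impermeable to calcium when its transcript is edited, was at 1.62, 1.44 and 1.26 in NC, 1.56, 1.46, 1.35 and 1.68 in NK, 1.57, 1.12, 1.59, 1.33 and 1.51 in HC, and 1.15, 1.39, 1.37 and 1.39 in HK. The groups overlapped and no comparison was called. HK against NK was -0.19 ± 0.12 (95% interval -0.44 to 0.07), and HC against NC was -0.01 ± 0.12 (-0.28 to 0.25).

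GRIA1 was at -0.99, -1.17 and -1.47 in NC, -1.06, -0.91, -1.19 and -0.81 in NK, -1.05, -1.24, -0.63, -0.98 and -0.81 in HC, and -1.58, -1.03, -1.17 and -1.10 in HK with probe A_70_P002742. The groups overlapped, with the means of HC (-0.94) and NK (-0.99) above those of NC (-1.21) and HK (-1.22). No difference between 2 groups was called, HC against NC being 0.27 ± 0.16 (95% interval -0.08 to 0.61) and HK against HC -0.27 ± 0.15 (-0.59 to 0.04). In HC against NC the GRIA1 differences were 0.67 and 0.64 within slide 2 and -0.07 and -0.08 within slide 1. Slide 2 held a single NC array, NC3, which is assumed in that fit to vary like the other groups, so these values carry no weight as calls.

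**Figure D2:**
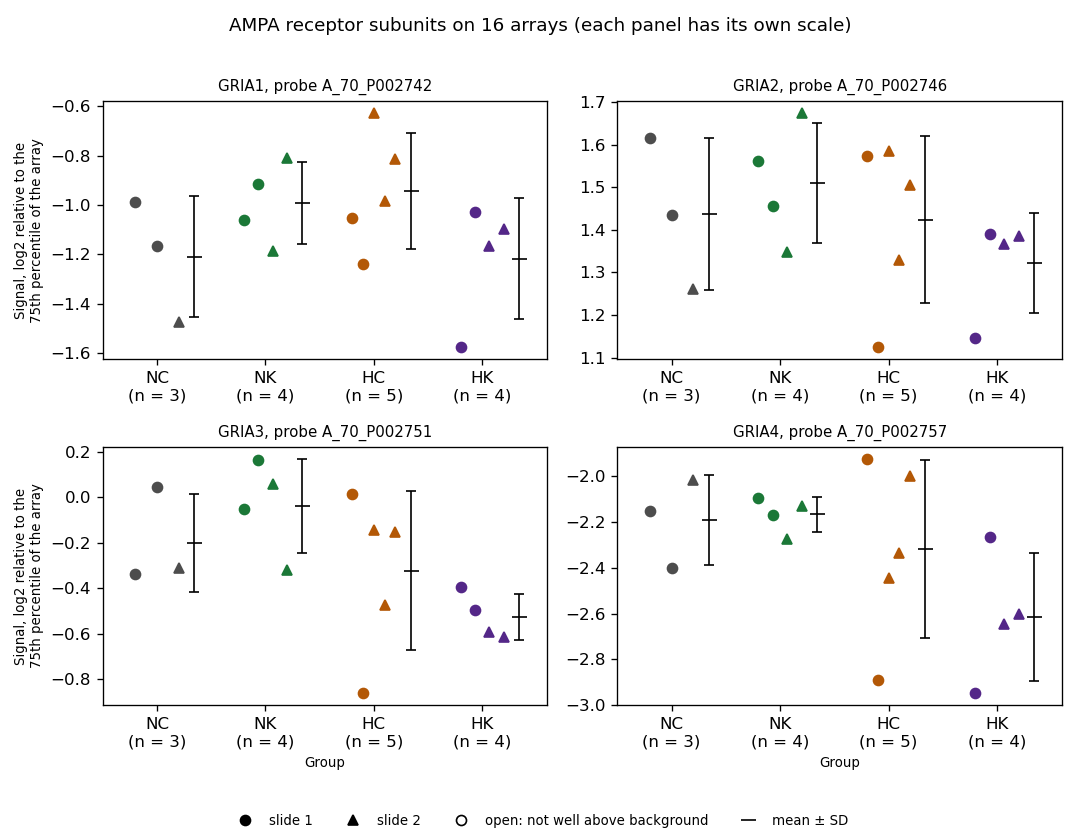
Signal of the AMPA receptor subunits on each array (y axis, log2 relative to the array's 75th percentile, 1 scale per panel) in the 4 groups (x axis), with circles for slide 1, triangles for slide 2 and bars for the mean ± SD. The GRIA3 values of HK (-0.62 to -0.39) lie below those of NK (-0.32 to 0.16), the GRIA4 values of HK overlap those of NK only at HK2, and GRIA1 and GRIA2 overlap between all groups.

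The GLT-1 probe gave the member calls in HC against NC and in HK against HC. It was lower after hypoxia with saline than after normoxia with saline, and higher after hypoxia with ketamine than after hypoxia with saline, but most arrays gave no signal well above background. Its signals were -6.08, -6.22 and -5.18 in NC, -5.33, -5.54, -6.63 and -6.75 in NK, -6.53, -7.97, -6.52, -7.66 and -6.09 in HC, and -5.52, -5.44, -5.85 and -5.89 in HK. HC2 and HC4 were lowest, and the only HC array well above background was HC5, the highest of that group. The HC and NC arrays overlapped, and those of HK and HC did not. In intensity units these were 6.35 to 20.5 in HC and 22.6 to 29.4 in HK. The level needed to pass the background mark differed by array. HC5 passed at 20.5, whereas HK1 at 28.6 and HK3 at 24.0 did not. The lowest passing signal of any probe was -6.61 to -6.00 on the HC arrays and -6.19 to -5.54 on the HK arrays. Its part in the GLT-1 differences was not tested.

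HC was lower than NC by -1.13 ± 0.45 (95% interval -2.09 to -0.17, adjusted p = 0.533), the 1 call among 12 member probes, with 3.93% of tested probes called lower and 8.15% in either direction. The call was lost without NC3 (-0.81), HC2 (-0.87) or HC4 (-0.95). HK was higher than HC by 1.28 ± 0.41 (0.40 to 2.16, adjusted p = 0.685), also the 1 member call, with 3.25% of tested probes called higher, 7.04% in either direction and 1.55% with no overlap between arrays. That call held without each array in turn (1.03 to 1.497), and the difference was 1.77 within slide 1, where it was called, and 0.89 within slide 2, where it was not. The size depended on the background correction, since normexp on the mean signals gave -0.22 and 0.24 and the deposited log2 values gave -0.14 and 0.15 for the same 2 comparisons, all called. The HC arrays serve in both comparisons. HC against NC and HK against HC therefore share samples, and their opposite signs are not independent of each other.

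The EAAT2 probes, taken from their name alone to be for the same transporter, share no run of 15 bases with the GLT-1 probe and were well above background on all 16 arrays. A_70_P026706 was at -2.99, -2.58 and -2.27 in NC, -2.68, -2.39, -1.98 and -2.11 in NK, -2.48, -2.66, -1.79, -2.17 and -1.48 in HC, and -2.55, -2.57, -2.46 and -1.996 in HK. The groups overlapped. HC against NC was 0.50 ± 0.26 (95% interval -0.06 to 1.07, adjusted p = 0.656) and HK against HC -0.28 ± 0.24 (-0.80 to 0.24, adjusted p = 0.825), neither called and both opposite in sign to GLT-1. The second EAAT2 probe gave 0.42 ± 0.25 and -0.32 ± 0.23, with intervals that also held 0. In HC against NC, A_70_P026706 was called higher without HC1 (0.59), HC2 (0.64) or NC3 (0.67) and with array weights (0.56), and A_70_P026707 without HC2 (0.56). In the interaction, A_70_P026707 was called without HC2 (-0.78) or HK4 (-0.77). Over the 16 arrays the GLT-1 probe had an r of -0.13 and -0.07 with the EAAT2 probes, which had 0.96 with each other. The GLT-1 and EAAT2 probes did not move together, and whether they measure the same transcript was not tested.

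**Figure D3:**
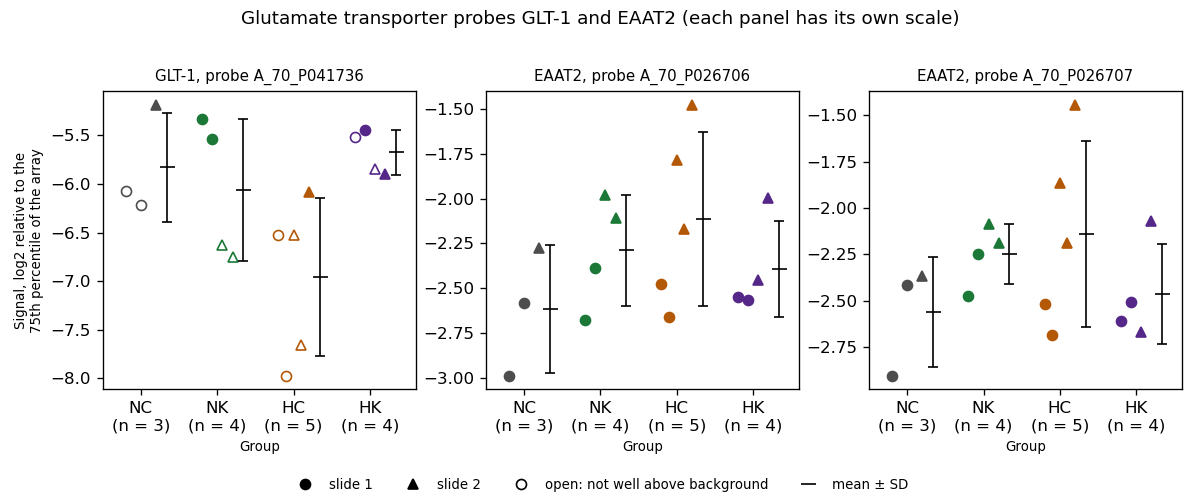
Signal of the GLT-1 probe and of both EAAT2 probes on each array (y axis, log2 relative to the array's 75th percentile, 1 scale per panel) in the 4 groups (x axis), with open symbols where the probe was not well above background, circles for slide 1, triangles for slide 2 and bars for the mean ± SD. GLT-1 is open on 10 arrays and lies lower in HC (-7.97 to -6.09) than in HK (-5.89 to -5.44), and EAAT2 is filled on all 16 arrays and overlaps between all groups.

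The serotonin receptor 5HT2A had signals of -4.63, -4.99 and -5.42 in NC, -5.15, -5.32, -4.83 and -3.98 in NK, -5.21, -5.48, -4.42, -4.66 and -4.56 in HC, and -5.61, -5.03, -5.10 and -4.81 in HK. NK4 stood highest and HK1 lowest, and all groups overlapped. No comparison was called. HK against NK was -0.32 ± 0.31 (95% interval -0.98 to 0.35) and HC against NC 0.15 ± 0.32 (-0.54 to 0.83). The slides differed in sign in HC against NC, with -0.54 in slide 1 and 0.88 in slide 2, where NC was the single array NC3.

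With all arrays, the adrenergic receptors were not called in any comparison either. ADRB1 was at -4.85, -5.00 and -4.85 in NC, -3.35, -4.58, -7.35 and -4.61 in NK, -4.57, -4.85, -5.70, -5.00 and -4.85 in HC, and -4.94, -4.41, -4.93 and -5.80 in HK. The group means lay between -5.02 and -4.90, and NK held both the highest array, NK1, and the lowest, NK3. HK against NK for ADRB1 was -0.05 ± 0.61 (95% interval -1.37 to 1.28), so that a difference of 1 log2 unit was within the interval, and it was called at -0.84 without NK3.

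ADRB3 was at -3.28, -3.14 and -2.93 in NC, -2.87, -3.15, -5.26 and -4.43 in NK, -2.88, -3.39, -3.44, -2.99 and -5.43 in HC, and -3.16, -2.78, -4.76 and -5.18 in HK. All 8 arrays of slide 1 lay between -3.39 and -2.78. On slide 2, which was scanned in a separate session, 5 of 8 arrays (NK3, NK4, HC5, HK3 and HK4) lay below -4, a value chosen after the signals were seen. These arrays came from 3 groups, and none of the comparisons was called with or without slide in the model. NK against NC was 0.20 within slide 1 and -1.91 within slide 2.

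**Figure D4:**
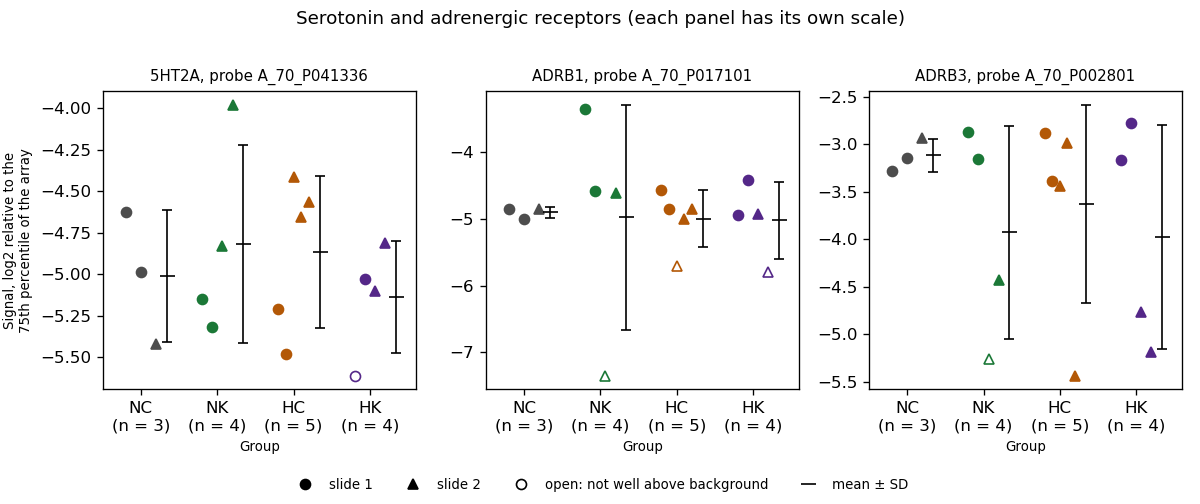
Signal of 5HT2A, ADRB1 and ADRB3 on each array (y axis, log2 relative to the array's 75th percentile, 1 scale per panel) in the 4 groups (x axis), with circles for slide 1, triangles for slide 2, open symbols where the probe was not well above background, and bars for the mean ± SD. The ADRB3 arrays of slide 1 lie between -3.39 and -2.78, and 5 arrays of slide 2 lie below -4.

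No member was called between ketamine and saline under normoxia. In NK against NC, limma called 0 of 12 member probes at the unadjusted threshold, where 1.09% of all tested probes were called, and 0 after adjustment. The differences ran from -0.81 (ADRB3) to 0.22 (GRIA1), with a median of 0.06 against 0.02 over all tested probes. The 95% interval for GRIN1 was -0.85 to 0.93 and for GRIA3 -0.23 to 0.56, so differences up to these sizes remained within the intervals.

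The interaction asks whether the ketamine difference after hypoxia was unlike that after normoxia. It was called for GLT-1 and for GRIA1, 2 of 12 member probes, with 3.8% of tested probes called. For GLT-1 the interaction was 1.52 ± 0.62 (95% interval 0.18 to 2.85, adjusted p = 0.994), made of 1.28 after hypoxia and -0.24 after normoxia. For GRIA1 it was -0.49 ± 0.22 (-0.98 to -0.01, adjusted p = 0.994), made of -0.27 and 0.22, and the second GRIA1 probe gave -0.47 (-0.98 to 0.05) and was not called. With normexp the GLT-1 interaction was 0.33 and with the deposited values 0.22, both called. The GLT-1 call was lost without HK2 (1.44), NC3 (1.20), NK3 (1.33) or NK4 (1.29). That of GRIA1 was lost with slide as a block (-0.47), with normexp (-0.37) and with the deposited values (-0.33), and without any of NC2, NC3, NK1, NK2, NK4, HC3, HC4, HC5, HK1 or HK3, with values from -0.51 to -0.36. Without HC2 the interaction was called for 5 member probes, which were GLT-1 (1.26), both GRIA1 probes (-0.57 and -0.54), GRIA3 (-0.50) and GRIN1 probe A_70_P002821 (-0.93), against 5.44% of tested probes, and the second GRIA1 probe was also called without HK2 (-0.57) or NK3 (-0.55). Without HK1 the interaction was called for 1 member probe, with 3.78% of tested probes.

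HC2 also bore on HK against HC. With all arrays, 11 of 12 member probes were lower in HK than in HC, with a median of -0.27 against 0.03 over all tested probes. The 2 probes of a gene again count separately, and only GLT-1 was called. Without HC2, 7 member probes were called, against 8.54% of tested probes. GLT-1 was then 1.03 higher in HK. The other 6 were glutamate receptor probes that were lower in HK, with GRIN1 at -0.83 and -0.78, GRIA4 at -0.44 and -0.54, GRIA3 at -0.34 and GRIA1 at -0.35. GRIA4 (A_70_P002757, -0.41) was also called without HK2. HC2 was the lowest HC array for all 7 probes called without it, so leaving it out raised the HC mean. Without HK1, only GLT-1 was called, 1 member probe against 7.13% of tested probes. Over all arrays left out in turn, the GRIN1 differences ran from -0.83 to -0.24 and from -0.78 to -0.30. HC2 and HK1, the lowest arrays for both GRIN1 probes and for GRIA4 probe A_70_P002757, are slide 1 arrays. They did not stand apart with the NR1 probe, where the lowest arrays were HK3 (-1.94), HK1 (-1.85) and HC2 (-1.82), followed by HK4 (-1.72). With GRIA4 probe A_70_P002756 the lowest were HC2 (-3.50) and HK3 (-3.24), the latter on slide 2, with HK1 at -3.22. The labels give RNA integrity only as a range for the series, so its part was not tested.

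**Figure D5:**
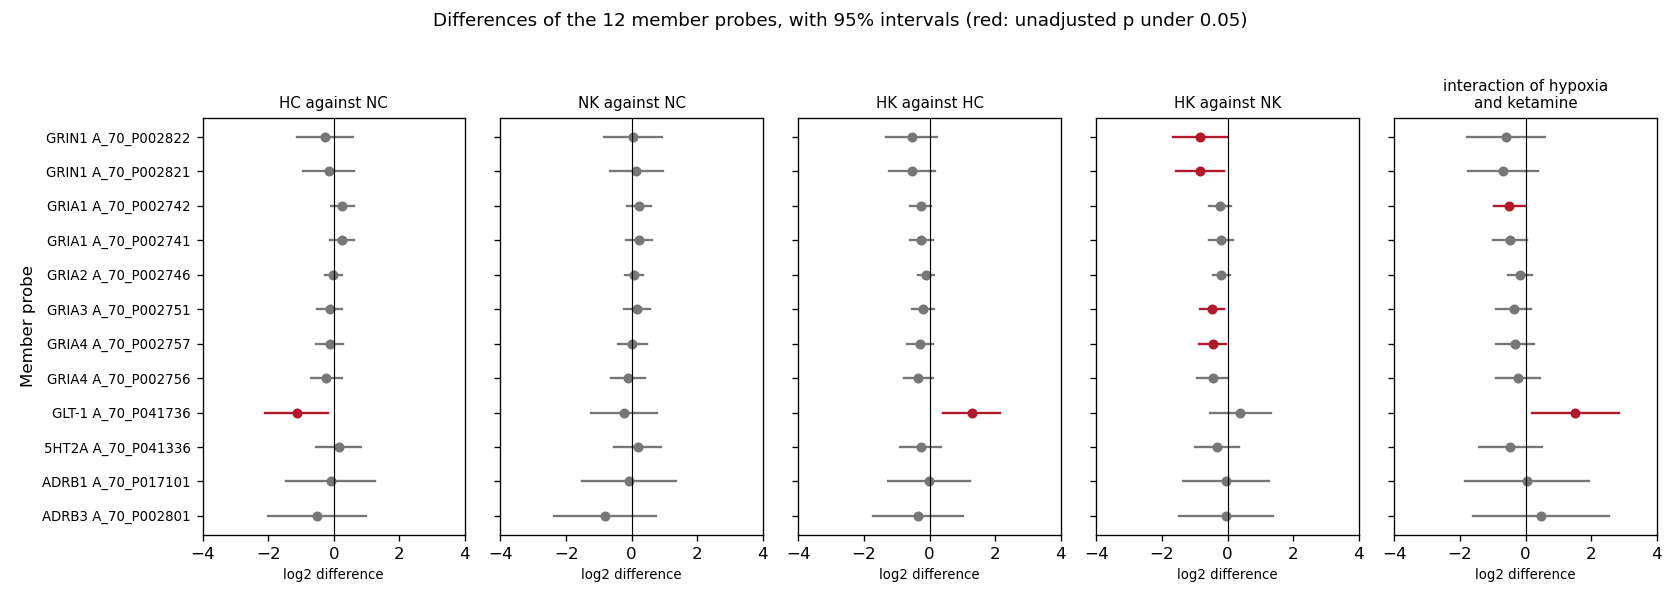
Log2 differences (x axis) of the 12 member probes (y axis) in the 4 group comparisons and the interaction, with points for the estimate, lines for the 95% interval and red for an unadjusted p under 0.05. The calls are GLT-1 at -1.13 in HC against NC and 1.28 in HK against HC, 4 glutamate receptor probes from -0.85 to -0.45 in HK against NK, none in NK against NC, and GLT-1 and GRIA1 in the interaction.

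Markers of other cell types were read beside these results. No named probe matched the lists of neuron and oligodendrocyte markers, so a share of neurons could not be followed. The 4 astrocyte markers (AQP4, VIM, GFAP and GJA1) were well above background on all arrays, with a summed signal of 94.1 to 116 times the 75th percentile in NC, 105 to 110 in NK, 92.9 to 109 in HC and 101 to 110 in HK, and none was called. Over the 16 arrays, GFAP had an r of -0.63 with GRIN1 (A_70_P002822) and the other astrocyte markers -0.37 to 0.21, as a description. The microglia and macrophage marker ITGAM had -0.64 and CD14 -0.42. The choroid plexus marker TTR varied widely within groups. Its signal was 1.29 to 4.8 times the 75th percentile in NC, 0.385 to 11.1 in NK, 0.16 to 11.1 in HC and 0.341 to 2.61 in HK. TTR, the blood marker HBB and the endothelial markers PECAM1 and FLT1 were not called in any comparison.

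The 2 microglia and macrophage markers with a named probe moved in the hypoxia comparison in which GLT-1 was lower. CD14, a receptor for bacterial lipopolysaccharide, was 1.34 higher in HC than in NC and fell by 1.35 from HC to HK, and ITGAM, an integrin subunit of phagocytes, was 0.74 higher in HC than in NC, all called without adjustment. ITGAM did not follow CD14 from HC to HK, where its difference was -0.08 and was not called. Their summed signal was 0.158 to 0.184 in NC, 0.110 to 0.220 in NK, 0.155 to 0.965 in HC and 0.118 to 0.378 in HK. In HK against NK, where GRIN1, GRIA3 and GRIA4 were lower, ITGAM differed by 0.68 and CD14 by 0.0013, neither called. Of 6 pituitary markers tested, LHB alone was called, 0.21 higher in HK than in NK and 0.19 higher in HK than in HC, without adjustment. In HK against HC, PRL differed by -0.80, FSHB by -0.003, POMC by 0.39, CGA by 0.67 and GHRHR by 0.23. In HK against NK, PRL differed by 0.14, FSHB by 0.99, POMC by -0.08, CGA by 0.35 and GHRHR by 0.08. The part of these cells in the receptor and transporter values was not tested.

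Other genes of these transmitter systems were matched by a list of names (16 probes) or by the array's description (19 probes, a match chosen after the annotation was read). Of 35 probes for 21 names, 30 probes for 19 genes were tested. Counted by the brightest probe, none of the 19 was called between groups with all arrays, the main normalization and the model of the 4 groups. In the interaction 1 was called lower, the norepinephrine transporter SLC6A2 (-2.04, adjusted p = 0.994), which was well above background on 6 arrays only. That call was lost with quantile normalization (-1.82), normexp (-0.30), the deposited values (-0.18) and array weights (-1.63). It was also lost without any of NC1, NC2, NK2, NK3, HC2, HC4, HC5, HK1, HK2 or HK3, with values from -2.06 to -1.66. With slide as a block, 2 of the 19 genes were called, beside SLC6A2 in the interaction (with 4.17% of tested probes called). Glutamate dehydrogenase GLUD1 was lower in HC than in NC (-0.37, with 8.85% of tested probes called). The histamine receptor HRH2 was higher in HK than in HC (0.26, with 8.11%). That HRH2 probe lay between -1.84 and -1.38 on slide 1 and between -3.46 and -3.10 on slide 2. Compared alone, HK against NK gained the transporter EAAT1 (-0.41) and the receptor MGLUR7 (0.375), with 8.43% of tested probes called. With normexp, GLUD1 was lower in HC against NC (-0.33, 7.97%) and in HK against NK (-0.27, 8.48%). The deposited values called GLUD1 too (-0.31, 7.97%, and -0.25, 8.66%), and the adenosine receptor ADORA3 in HC against NC (-0.35). Fits within 1 slide or with 1 array left out gained others. A dimmer probe of the metabotropic glutamate receptor MGLUR1, A_70_P041711, was lower in HK than in NK (-1.43 ± 0.50, adjusted p = 0.431) and in the interaction (-1.85), but was well above background on 5 arrays, and the brighter MGLUR1 probe was not called. The serotonin transporter SERT and MGLUR2 were not well above background on any array. The mu and kappa opioid receptors, to which ketamine also binds weakly, were above background on at least 15 arrays with each probe and were not called with all arrays.

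GRIN1 and GRIA4 had each other as the nearest of 864 named genes by Pearson r over the 16 arrays (0.97), and their r was 0.98 in slide 1 and 0.97 in slide 2. The next for GRIN1 were LOC100037685 (0.96) and CPE (0.955, carboxypeptidase E, which trims neuropeptide precursors), and for GRIA4 they were LOC100037685 (0.96) and LOC100137071 (0.93). GRIA1 was nearest to FLT1 (0.80), GRIA2 (0.77) and 5HT2A (0.77), although FLT1 was above background on only 9 arrays. GRIA2 was nearest to CPE (0.80), CSNK1E (0.79) and SLC4A4 (0.79). GRIA3 was nearest to IGFR1 (0.79), PURA (0.78) and PUS1 (0.74). These coefficients describe arrays that share slides and the low arrays HC2 and HK1, and carry no test.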

How the data were processed

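Cyanine 3 labelled RNA of 16 fetal hypothalami was hybridized to Agilent sheep arrays, 1 fetus per array. The deposited files come from Feature Extraction 10.1.1.1 per the file headers, and hold each spot's intensity after background subtraction, with no normalization between arrays by the authors. The authors also deposited log2 values, rebuilt here to within 5e-09 by normexp on median signals and quantile normalization, and used as an alternative.

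The 536 control spots and outlier spots (0.0801%) were left out. The log2 processed signal minus the 75th percentile of each array (1248 to 1597 intensity units) was averaged by probe. The tests took the 12249 of 15008 probes that reached the scanner software's well-above-background mark on 3 arrays or more, and 71.7% to 80.6% of probes were well above background per array. A linear model of the 4 groups was fitted with limma 3.58.1 in R 4.3.3 (13.7 total degrees of freedom, two-sided), after a test on simulated data. The number of arrays limits the precision. The probe with the highest mean signal represents a gene, and all members are named. The members and lists were chosen with earlier results of these data known. The alternatives were other normalizations, background corrections and filters, slide, replicate number, array weights, fewer groups, the mean over probes of a gene, and each array left out.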

Additional observations from a re-analysis of the deposited data

Results flagged for a closer look

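Among 45 sets of 4 or 5 arrays (15 probes in 3 groups), 2 held an array far from the others by Dixon's test, which chance does in about 1 of 20 sets. The ADRB3 signal of HC5 was -5.43, against -3.44 to -2.88 on the other HC arrays. The GRIA2 signal of HK1 was 1.15, against 1.37 to 1.39 on the other HK arrays. The ketamine difference was unlike after hypoxia and after normoxia by the interaction term for GLT-1 (1.52) and GRIA1 (-0.49), at the unadjusted threshold.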

How the results depend on the processing

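The calls were few, unadjusted and often near the threshold. Over 1588 probe values under other settings, 1505 kept their side of the threshold, 55 lost a call, 28 gained one and none turned a called direction. The share of all tested probes called under the same setting stands in parentheses. In HC against NC, called member probes numbered 4 of 12 in slide 2 alone (5.89%), where NC is 1 array, and 0 of 8 when probes had to be well above background on all arrays (9.02%), which leaves out GLT-1. NK against NC had 2 in slide 2 alone (3.5%), also against 1 NC array. HK against HC had 2 with array weights (10.4%) and 0 of 8 with the filter on all arrays (8%). HK against NK had 0 in slide 1 alone (3.97%) and 2 in slide 2 alone (6.52%). The interaction had 1 with the deposited values (3.36%), normexp (3.14%), slide as a block (4.17%) and the filter on all arrays (3.91%), since GRIA1 lost its call in the first 3 and the filter leaves out GLT-1, and 0 in slide 1 alone (2.3%). By the mean over a gene's probes it had 1 gene in place of 2. With each array left out, called member probes ranged from 0 to 1 (HC against NC), 0 to 0 (NK against NC), 1 to 7 (HK against HC), 1 to 5 (HK against NK) and 0 to 5 (interaction). The share of all tested probes called also moved in these fits. In HC against NC it was 6.34% without HC2 (0 member calls), 5.06% without NC2 (1) and 9.85% without HC5 (1). In HK against HC it was 4.14% without HK3 (1 member call) and 8.54% without HC2 (7). In HK against NK it was 6.26% without NK2 (3) and 11.9% without HK2 (5). In the interaction it was 2.68% without NC2 (1) and 5.44% without HC2 (5). The cause was not tested.

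The samples were treated as sharing only a number, since 6 of 21 same-numbered pairs did not have correlated deviations above 0.1 (range -0.06 to 0.35). The median was 0.22 for same-numbered pairs and 0.207 for pairs of other numbers on the same slide, and 9 of 15 arrays were closest to their own number. All arrays of a number lay on the same slide, so that count cannot tell a shared number from a shared slide. With replicate number as a block, HK against NK had 2 called probes in place of 4 (9.02%), and the interaction had 1 in place of 2 (4.53%), with GRIA1 at -0.43 not called. No other count of member calls changed. Among the related genes by the brightest probe, the block gained calls for GLUD1 (-0.44, HC against NC), HRH2 (0.25, HK against HC) and EAAT1 (-0.41, HK against NK) and lost that of SLC6A2 (-1.60). The shares of tested probes called with this block were 9.85% in HC against NC, 9.32% in HK against HC and 9.02% in HK against NK.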

Other observations

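The split of ADRB3 between slides was shared by other probes. Of 12171 other tested probes with values on all arrays, 51 had a Pearson r above 0.9 with ADRB3 over the 16 arrays, described without a test.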
